A study of Zea mays with 10 samples.

Results

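GRMZM2G147399 and GRMZM2G131421 are neighbouring genes on chromosome 9 of maize, and both had far higher transcript levels in *lbl1* vegetative apices than in wild type. They were chosen by their RPKM values in this comparison, as 2 of the 109874 genes in the authors' deposited table, together with the chromosome 9 interval around them. The difference between the genotypes at these genes is therefore a description and carries no test. The interval holds every gene whose locus starts between 20600000 and 20750000 on B73 RefGen_v2, which is 17 genes, so 15 others lie beside the chosen pair.

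RNA was sequenced from shoot apices of 2-week-old seedlings, with the meristem and the youngest leaf primordia, for 2 wild-type and 2 *lbl1* samples. Wild type is labelled B73, the inbred line of the maize reference genome, and is called B73 here, and *lbl1* is labelled LBL1 -/-, in the B73 background. The mutants carry the *lbl1-rgd1* allele, repeatedly introgressed into B73, and came from families that segregated it, so donor DNA that stayed with the allele or elsewhere is a limit of the model. RPKM, the reads of a gene relative to the length of its transcript and to the mapped reads of the library, is given once per genotype over both samples, so no level here has an SD and no difference can be set against the spread between samples.

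*lbl1* encodes the maize homolog of SGS3, a protein that protects cleaved RNA so that it can be copied into double-stranded RNA and diced into trans-acting siRNAs. Among these, the tasiR-ARFs restrict transcripts of *ARF3* genes, which specify the lower, abaxial side of the leaf. Neither gene of the pair has a symbol in the authors' table. RefSeq lists both as protein coding, as LOC100193182 for GRMZM2G147399 and LOC103638099 for GRMZM2G131421, without a product name in the table used here.

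As a check of the labels, the *lbl1* gene itself (GRMZM2G020187, on chromosome 6 from 17165362 to 17171793) had a level of 301 RPKM in B73 and of 226 RPKM in *lbl1*. Its transcript level alone thus does not mark the mutant libraries. The homeobox gene *KN-1* (GRMZM2G017087), whose product knotted1 maintains the shoot meristem, was at 69.3 RPKM in B73 and 123 RPKM in *lbl1*. This meristem gene was thus present in both genotypes and higher in *lbl1*, and its part in the levels given below was not tested. In whole apices, a different share of cells of a type and a different amount of RNA per cell cannot be told apart.

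GRMZM2G147399 lies on chromosome 9 from 20665757 to 20666996, a locus of 1240 bp that no other annotated gene shares. Its level was 1.07 RPKM in B73 and 116 RPKM in *lbl1*. The *lbl1* value was 108 times the wild-type value, a log2 ratio of 6.75. In wild type the gene stood above 35.1% of all genes with a level over 0, and in *lbl1* above 96.1% of them. It thus passed from the lower part of the detected transcripts to place 1547 of all genes in *lbl1*.

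GRMZM2G131421 lies farther along the chromosome, from 20693835 to 20695096, on a locus of 1262 bp. Its level was 1.09 RPKM in B73 and 85.0 RPKM in *lbl1*, a 77.7-fold ratio and a log2 ratio of 6.28. It stood above 35.3% of detected genes in wild type and above 94.5% of them in *lbl1*, at place 2189. The 2 genes were nearly level in wild type, where GRMZM2G131421 was 1.02 times GRMZM2G147399. In *lbl1*, GRMZM2G147399 was 1.36 times GRMZM2G131421, and whether that gap exceeds the spread between samples is not known.

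Both ratios rest on low wild-type values. The authors' program required a minimum count of aligned reads for a test, and RPKM does not give that count. Among the genes it tested, the lowest level in the higher genotype was 1.71 RPKM, and both wild-type levels were under that. The *lbl1* levels are far above it, so by this measure the size of the ratio is less certain than the *lbl1* level. That minimum was taken over tested genes of any length, and GRMZM2G131421 was not among them, as its test failed. Its level and its gain also come from a locus shared with GRMZM5G880228, described below. The gain in RPKM does not depend on a small divisor: it was 114 RPKM for GRMZM2G147399 and 83.9 RPKM for GRMZM2G131421, places 245 and 360 among all genes.

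Set against the whole apex transcriptome, the pair stands at the edge of the distribution that chose it. Levels of 1 RPKM or more in both genotypes were found for 24760 genes, and their median log2 ratio was −0.10. By ratio, GRMZM2G147399 took place 2 among them and GRMZM2G131421 place 3. Place 1 was GRMZM2G028393, named *pis7* in the table, with 19.3 RPKM in B73 and 2228 RPKM in *lbl1*. The next genes after the pair were GRMZM2G075459 on chromosome 1, at 1.23 and 83.2 RPKM, and GRMZM2G099984 on chromosome 8, at 1.25 and 79.1 RPKM. These are the values just outside the pair. Genes under 1 RPKM in wild type reach higher ratios still, and among all 29150 genes above 0 RPKM in B73 and at 1 RPKM or more in either genotype the places were 55 and 70.

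**Figure D1:**
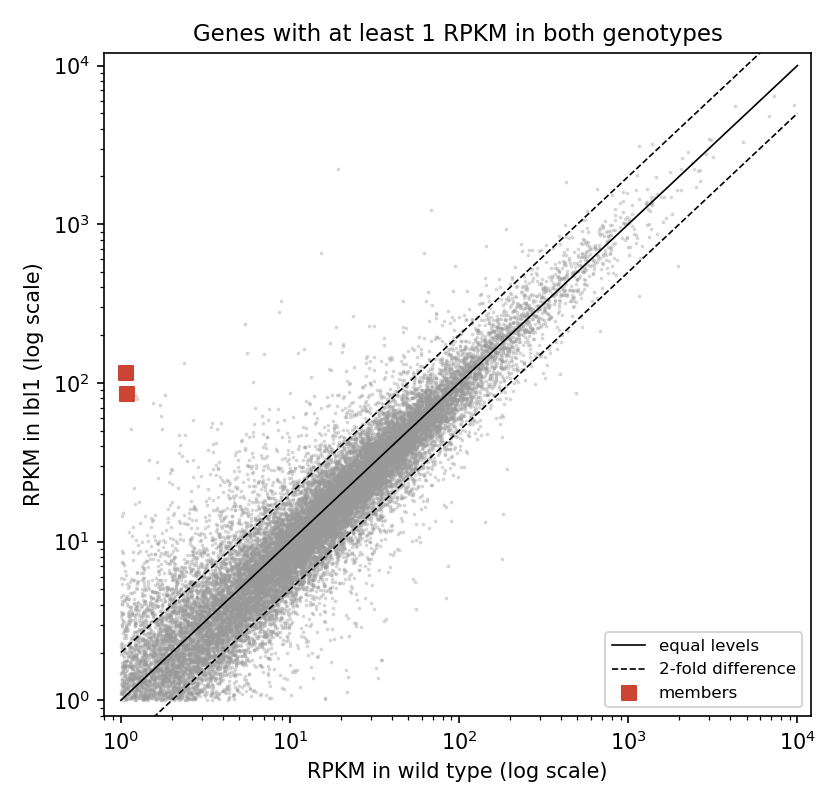
RPKM in wild type (x axis, log scale) against RPKM in *lbl1* (y axis, log scale) for the 24760 genes at 1 RPKM or more in both, each grey point 1 gene with 1 pooled value per genotype. The red squares are GRMZM2G147399, at 1.07 and 116 RPKM, and GRMZM2G131421, at 1.09 and 85.0 RPKM, and both sit at the upper left, far above the dashed line that marks a 2-fold difference.

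The locus of GRMZM2G131421 is also the locus of GRMZM5G880228, which has the same start and end in the table. GRMZM5G880228 was at 0.718 RPKM in B73 and 15.5 RPKM in *lbl1*, a 21.5-fold ratio. It differed in the same direction as GRMZM2G131421. Whether reads were divided between the 2 genes was not tested, as the table gives neither exons nor strand. The level of GRMZM2G131421 was 1.52 times that of GRMZM5G880228 in wild type and 5.50 times in *lbl1*. Summed over both, the locus was at 1.81 RPKM in B73 and 100.4 RPKM in *lbl1*, and the ratio dropped to 55.4. For both genes of this locus the table marks the authors' test as failed, while GRMZM2G147399 was tested.

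Between the pair lie 26838 bases with 8 annotated genes, and none of these shared the difference. Of the 8 genes, 6 were listed at 0 RPKM in both genotypes. GRMZM2G147366 (20669892 to 20670761) was at 0.928 RPKM in B73 and 0.588 RPKM in *lbl1*, on the low side in both. GRMZM2G570308 (20667215 to 20667321), with 218 bases between it and GRMZM2G147399, was at 7.87 RPKM in B73 and listed at 0 in *lbl1*, the opposite direction to its neighbour. Its locus spans only 107 bp. Among the 907 genes with a locus under 200 bp and 1 RPKM or more in either genotype, 71.7% were listed at 0 in one genotype, against 6.38% of all 29929 genes with that level. In a later maize assembly, NAM-5.0, RefSeq places 2 genes between the pair, 1 protein coding and 1 long non-coding RNA, and neither carries an identifier of the table.

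Over the interval, 4 of the 15 other genes reached 1 RPKM in either genotype, 8 were listed at 0 in both and 3 were above 0 but under 1 RPKM. Of the 4 genes, 1 was at least 2-fold higher in *lbl1*, GRMZM5G880228 on the shared locus, and 1 at least 2-fold lower, GRMZM2G570308. Over all 29929 genes at 1 RPKM or more in either genotype, 12.6% were at least 2-fold higher and 12.9% at least 2-fold lower, and 4 genes are too few to be read against these shares. GRMZM2G103475 (20605661 to 20607692), the nearest gene of at least 1 RPKM before the pair, was at 5.50 RPKM in B73 and 3.49 RPKM in *lbl1*. GRMZM2G404897 (20735631 to 20746313), the nearest such gene after the pair, was at 17.3 and 16.7 RPKM, nearly equal in both genotypes. The 3 genes of low level were GRMZM2G147366, GRMZM5G895580 at 0.885 and 0.188 RPKM, and GRMZM2G404965 at 0 and 0.154 RPKM. Their ratios rest on very low levels in both genotypes and were not counted. GRMZM5G895580 shares the locus of GRMZM2G404897.

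**Figure D2:**
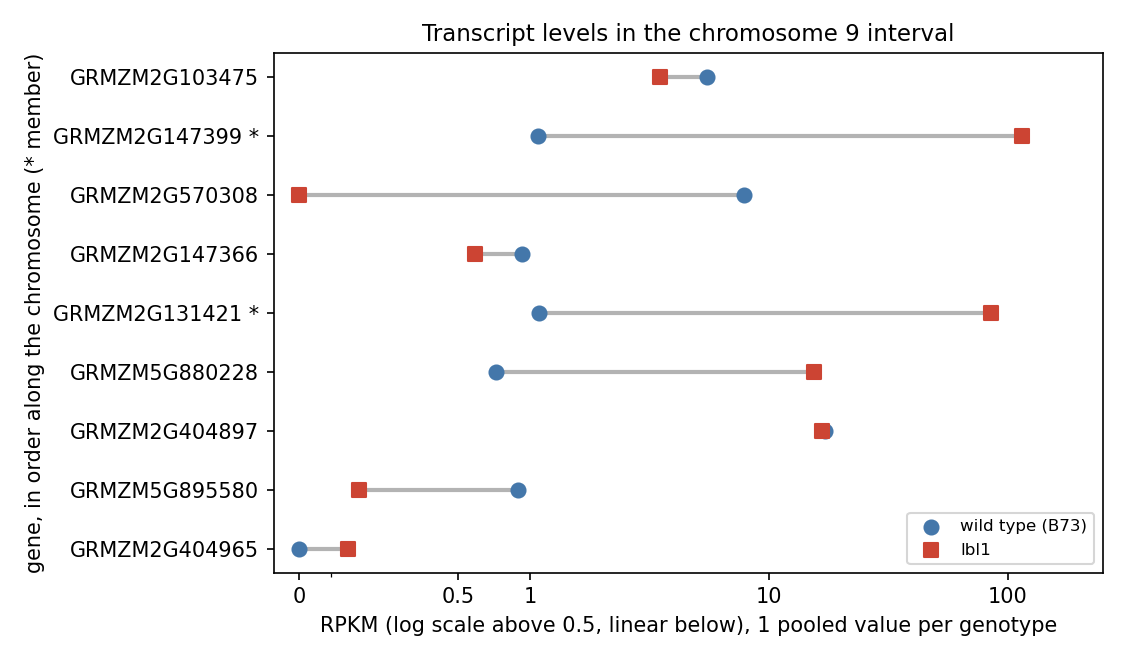
RPKM (x axis, log scale above 0.5 and linear below) of the interval's genes above 0 RPKM in either genotype, in their order along chromosome 9, with blue circles for wild type, red squares for *lbl1* and a grey bar joining both, each 1 pooled value per genotype. The asterisks mark GRMZM2G147399 and GRMZM2G131421, whose bars reach from about 1 RPKM to 116 and 85.0 RPKM, while GRMZM2G570308 runs the other way from 7.87 RPKM to 0 and GRMZM2G404897 has both marks at 17.3 and 16.7 RPKM.

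On both sides of the pair, the distance to the first gene past 2-fold was measured. Before the pair, 9 genes of at least 1 RPKM in either genotype had log2 ratios from −0.98 to 0.85 until the first one past 2-fold, GRMZM2G173685 (20459075 to 20459382), 206 kb away at 19.4 RPKM in B73 and 45.4 RPKM in *lbl1*. One of the 9, GRMZM5G829544, at 29.3 and 21.5 RPKM, carries the RefSeq synonym FatB, the plastid thioesterase that releases fatty acids from their carrier protein. After the pair, 8 such genes had log2 ratios from −0.63 to 0.46 until GRMZM2G493517 (21277607 to 21278170), 583 kb away at 1.33 and 0.429 RPKM. The stretches were drawn up to the first gene past 2-fold, so that their genes lie within 2-fold says nothing further, and 74.6% of all genes at this level did.

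Over wider stretches most genes were within 2-fold, as were 74.6% of all genes at 1 RPKM or more in either genotype. Within 1 Mb of the interval, and outside it, 3 of 38 genes (7.89%) were at least 2-fold higher and 4 (10.5%) at least 2-fold lower, and their median log2 ratio was −0.11. Within 5 Mb, 23 of 229 genes (10.04%) were higher, 38 (16.6%) were lower and the median log2 ratio was −0.13. The rest of chromosome 9 had 291 higher and 286 lower genes of 2256, with a median of −0.12. Over all genes, 12.6% were higher and 12.9% lower, with a median of −0.09, so the share of lower genes within 5 Mb was the larger one, and whether it differs was not tested. The 3 higher genes within 1 Mb included GRMZM2G094510 (19657383 to 19658061), at 5.42 RPKM in B73 and 235 RPKM in *lbl1*, about 1 Mb before the pair. The other higher genes also lie between it and the pair, GRMZM2G076972 at 3.47 and 9.56 RPKM and GRMZM2G173685. So do genes with nearly equal levels, such as GRMZM2G028928 at 14.0 and 13.7 RPKM. Among the 4 lower genes, GRMZM5G886200 (21580594 to 21585837) differed most, at 26.2 RPKM in B73 and 2.91 RPKM in *lbl1*. Its locus is shared with GRMZM2G114098, at 23.3 and 17.2 RPKM.

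**Figure D3:**
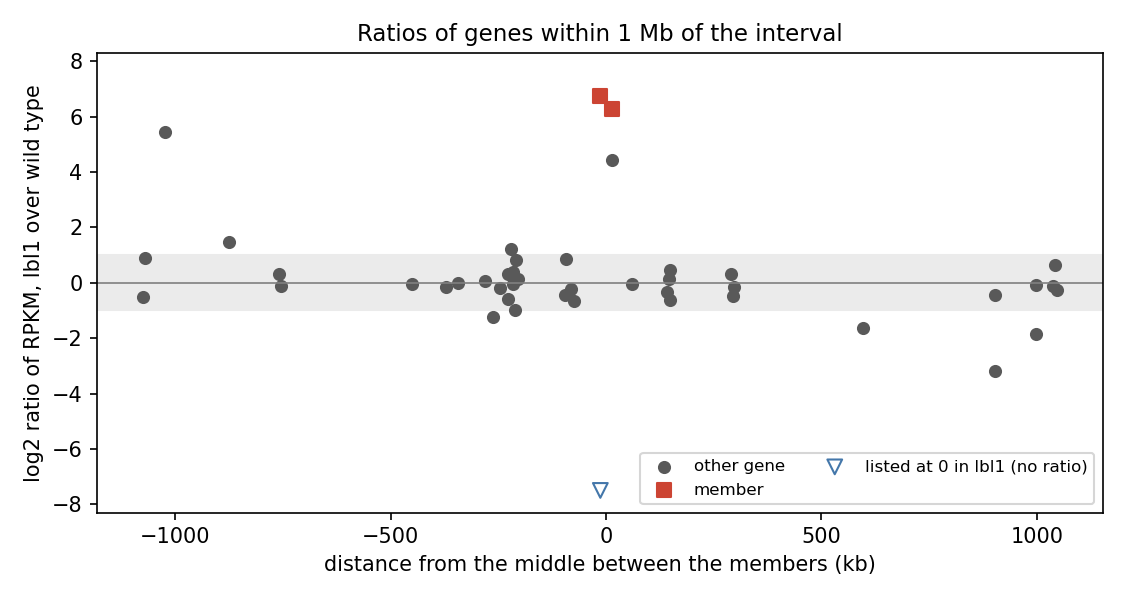
Log2 ratio of RPKM, *lbl1* over wild type (y axis), against the distance from the middle between the pair in kb (x axis) for genes at 1 RPKM or more in either genotype within 1 Mb of the interval, with red squares for the pair, grey points for other genes, an open triangle for a gene listed at 0 in *lbl1* and a grey band for ratios within 2-fold. The pair stands at 6.75 and 6.28 with GRMZM5G880228 at 4.43 beneath it, the open triangle is GRMZM2G570308, and GRMZM2G094510 stands apart at 5.44 on the far left.

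Large increases that lie close together were counted over all genes. How often genes of any level lie within 50 kb of each other was not counted, so how common such groups are cannot be said. At least 10-fold higher levels in *lbl1*, with at least 10 RPKM there, were found for 313 genes, 1.05% of the 29929, of which the pair and GRMZM5G880228 are 3. With up to 50 kb between consecutive locus starts, 23 of the 313 genes formed 11 groups. Of these, 9 spanned 2 loci and the others, on chromosomes 8 and 10, 1 shared locus. The chromosome 9 group was the only one with 3 genes, but on 2 loci, since GRMZM5G880228 shares the locus of GRMZM2G131421. In 6 of the groups at least 1 gene was listed at 0 RPKM in B73, where no ratio can be given. Only 2 groups had at least 1 RPKM in both genotypes at 2 or more separate loci: the chromosome 9 pair and a pair on chromosome 7. The chromosome 9 pair passed this limit narrowly, at 1.07 and 1.09 RPKM in B73. On chromosome 7, GRMZM2G333337 (2721941 to 2730093) was at 68.6 RPKM in B73 and 1234 RPKM in *lbl1*, and GRMZM2G117281 (2741415 to 2742837) at 8.61 and 282 RPKM. That pair was already well above 1 RPKM in wild type, unlike the one on chromosome 9. The limit of 1 RPKM in both genotypes left out a second group on chromosome 7 (164197666 to 164235658). It had 2 loci, none listed at 0 in B73, and a lowest B73 level of 0.531 RPKM. The group distance and the 1 RPKM, 10-fold and 10 RPKM limits were chosen with the values of the pair known.

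Genes elsewhere in the genome had nearly the same levels as the pair. Likeness was measured as the distance between the log2 RPKM values of 2 genes over the 2 genotypes, among the 35718 genes outside the interval above 0 RPKM in both. The closest to GRMZM2G147399 was GRMZM2G494688 on chromosome 4, at 0.916 RPKM in B73 and 114 RPKM in *lbl1*, a distance of 0.23. The closest to GRMZM2G131421 was GRMZM2G075459, at a distance of 0.17. The 5 closest genes were the same for both members of the pair, and besides these they were GRMZM2G099984, GRMZM2G401328 on chromosome 1, named *cc6* in the table, at 0.918 and 80.6 RPKM, and GRMZM2G545905 on chromosome 4, at 1.55 and 74.5 RPKM. None of the 5 lies on chromosome 9. The distance between the pair was 0.44, so 3 genes elsewhere were closer to GRMZM2G131421, and 1 to GRMZM2G147399, than its own neighbour was. With 2 values per gene, such likeness says only that the levels are close.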

How the data were processed

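The authors trimmed the RNA-seq reads, used TopHat to align them to B73 RefGen_v2 with its exon junctions, and kept uniquely mapped reads. The authors then ran Cuffdiff, whose deposited table gives RPKM once per genotype over its 2 samples, so near-identical copies may lose reads and no value per sample is given. The depth per sample is unknown here. RPKM summed to 1.03e+06 over all B73 values and to 1.05e+06 over those of *lbl1*. The table's columns of fold changes, test statistics, p-values and q-values are the authors' own comparison and were not used; only the test status was read. The series' small RNA libraries (3 for each genotype) were not used here.

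Ratios are *lbl1* RPKM over wild-type RPKM with no pseudocount, without median scaling, and genes listed at 0 in one genotype get no ratio. Counts use genes at 1 RPKM or more in either genotype and a 2-fold difference. In these counts, a gene listed at 0 in one genotype is taken as past the fold limit, as 1908 of the 29929 genes were. No tests were run. Locus starts count from 0 in the table, so 1 was added. The counting was run on simulated levels whose folds all lay clear of the 2-fold limit, so their recovery was fixed in advance. Levels near 1 RPKM or at 0 were not covered. The named genes are the pair, genes of the interval at 1 RPKM or more, *lbl1* and the 5 closest genes to each member; other named genes, among them *KN-1*, the flanking genes, those at the top by ratio and the chromosome 7 pair, were added after their values were seen. Members, lists and limits were chosen with earlier results of these data known. A gene family list and a low-oxygen list were not used, since the tables used here give the pair no product name, and the planned promoter and protein comparisons were not made. RefSeq synonyms (NAM-5.0) matched 4 of the 17 interval genes and 18777 of all genes, and positions in that assembly served only to see which genes lie between the pair. Python 3.11.15, numpy 2.4.6, pandas 2.3.3 and matplotlib 3.10.9 were used.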

Additional observations from a re-analysis of the deposited data

How the results depend on the processing

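The pair was chosen for large ratios, so that their direction held under every scaling and pseudocount tried says nothing further. A pseudocount of 1 RPKM gave log2 ratios of 5.81 for GRMZM2G147399 and 5.36 for GRMZM2G131421, and one of 0.1 RPKM gave 6.62 and 6.16. Subtracting the median of genes at 1 RPKM or more in both genotypes gave 6.85 and 6.38, and scaling to the 75th percentile gave 6.72 and 6.25. Summed with GRMZM5G880228, an alternative chosen after seeing the data, GRMZM2G131421 had a log2 ratio of 5.79. Of the 29929 genes at 1 RPKM or more in either genotype, 3761 were at least 2-fold higher in *lbl1*. A 4-fold limit gave 1955 and a pseudocount of 1 RPKM 2700. Other settings also change which genes are counted, so their counts are not shares of the same set. Any level above 0 RPKM gave 8850, and at least 5 RPKM in either genotype 1755. At least 1 RPKM in both gave 1574 of 24760 genes. Leaving out genes on shared loci gave 2594, and leaving out loci under 200 bp 3448. Of the pair's neighbours, 1 was at least 2-fold higher, 2 with any level above 0 RPKM, and 0 with at least 1 RPKM in both genotypes or without genes on shared loci, since the 1 gene is GRMZM5G880228. No paired analysis was possible because the table holds 1 pooled value per genotype, and for the same reason no sample could be left out.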

Other observations

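The status that Cuffdiff gave to GRMZM2G131421 and GRMZM5G880228, a failed test, was listed for 954 genes. Of these, 51.3% share their locus with another annotated gene, against 17.9% of all genes. The latter share includes genes under 1 RPKM in both genotypes, and none was taken over genes above that level. A failed test and 1 RPKM or more in either genotype were listed for 851 genes. Of these, 51 (5.99%) were at least 2-fold higher in *lbl1*, against 12.6% of all genes at this level. At least 2-fold lower were 81 (9.52%), against 12.9%. At least 10-fold higher with 10 RPKM or more were 7 (0.823%), against 1.05% of all. By ratio, GRMZM2G131421 was first of the 7. GRMZM2G103137 (chromosome 9, 18878722 to 18883992), at 1.82 RPKM in B73 and 84.4 RPKM in *lbl1*, was next, and its locus is not shared. A list of changed genes that requires a test result leaves these 7 genes out whatever their levels.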
